A study of Rattus norvegicus with 8 samples.

Results

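LXR and PPAR lipid handling genes were followed in peritoneal macrophages from carbon nanotube-treated rats. The 10 genes chosen were Nr1h3, Pparg, Abca1, Abcg1, Mylip, Apoe, Lpl, Cd36, Plin2 and Fabp4, and a gene was taken when its symbol stood in the name of a row of the deposited counts table. This found 9 of the 10 genes among 23487 rows. Cd36, a fatty acid and lipoprotein scavenger receptor, is counted below in the promoter search only, and its expression is not analysed here.

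Liver X receptors (LXRs) and peroxisome proliferator-activated receptors (PPARs) are nuclear receptors that bind DNA together with retinoid X receptors. LXRs respond to oxidized cholesterol derivatives and, in macrophages, turn on genes that send cholesterol out to lipoproteins and limit its uptake. PPARs respond to fatty acids and their derivatives and control genes of fatty acid uptake, storage and oxidation, and PPAR-gamma is known from macrophages that take up lipid or respond to interleukin-4.

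RNA-seq was performed on macrophages that had been sorted from the peritoneal cavity of female Wistar rats, 8 weeks old, 15 days after injection of nanotubes. One group received MWCNT-XNRI-7 (CNT-7), the mesotheliomagenic nanotube, and the other the tangled, non-mesotheliomagenic CNT-T, with 4 rats in each group. The labels give each rat a number, and the rats are separate animals. Macrophages from untreated rats were not analysed here, so every difference below is between both nanotubes and not from a resting state. Total counts were between 27394995 and 30215063 in CNT-7 and between 27195157 and 33732981 in CNT-T, and levels are given as counts per 1000000 (CPM) after TMM normalization. At this depth 3 counts correspond to at most 0.109 CPM in any rat. Such floors, and the counting interval given for Pparg, cover counting error only.

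The macrophage label was checked against 10 macrophage markers, and all 10 passed the filter on low counts. Csf1r, the receptor for the macrophage growth factor CSF-1, was at 1219.5 ± 68.2 CPM (SD, n = 4) in CNT-7 and 1530.2 ± 143 CPM in CNT-T. The lysosomal glycoprotein gene Cd68 was at 558 ± 49.1 CPM in CNT-7 and 708 ± 114 CPM in CNT-T. Gata6, the transcription factor of resident peritoneal macrophages, ran from 145 to 176 CPM in CNT-7 and from 117 to 141 CPM in CNT-T. Macrophage markers were thus present in every rat, but their levels differed. The scavenger receptor gene Cd163 was at 179.8 ± 60.8 CPM in CNT-7 and 582 ± 94.0 CPM in CNT-T, a log2 fold change of -1.69 (edgeR's quasi-likelihood test, Benjamini-Hochberg adjusted p = 0.00107). Adgre1, the gene of F4/80, was at 270.5 ± 40.6 CPM in CNT-7 and 592 ± 56.6 CPM in CNT-T, a log2 fold change of -1.13 (edgeR's quasi-likelihood test, Benjamini-Hochberg adjusted p = 0.000404). Cd163 and Adgre1 were named after their values were seen. Gata6 went the other way and was called higher in CNT-7, with a log2 fold change of 0.30 (edgeR's quasi-likelihood test, Benjamini-Hochberg adjusted p = 0.0421). Of the 10 macrophage markers 2 were called higher and 5 lower, against 13.9% and 14.0% of all genes tested. The groups did not overlap in 7 of the 10, Cd163, Adgre1 and Gata6 among them, against 24.9% of all genes tested. In bulk RNA of sorted cells, fewer cells of a type and less RNA per cell cannot be told apart.

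Genes were called when edgeR's quasi-likelihood test gave a p under 0.10 after adjustment by Benjamini and Hochberg's method over all 12124 genes tested. Of the 9 LXR and PPAR genes, 4 were called higher in CNT-7, where 13.9% of all genes tested were called higher, and 0 were called lower, where 14.0% of all genes were. The 4 were Pparg, Abcg1, Mylip and Plin2. DESeq2 also called 4 higher and 0 lower, and at an unadjusted p under 0.05 edgeR's test likewise gave 4 and 0. The groups did not overlap in 4 of the 9 genes, against 24.9% of all genes tested. The median log2 fold change, CNT-7 relative to CNT-T, was 0.27 over the 9 genes and 0.01 over all genes tested. Pparg passed the filter on low counts through the CNT-7 rats only, so that it had to differ once it was tested, and the count of 4 is not a count over genes that could all have gone either way.

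Among the receptors, Nr1h3 encodes LXR-alpha, the form of LXR found chiefly in liver, fat, intestine and macrophages. Nr1h3 was at 12.6, 14.9, 18.2 and 13.5 CPM in CNT-7 rats 3, 5, 10 and 11, and at 11, 22.6, 13.8 and 17.0 CPM in CNT-T rats 1, 2, 12 and 13. The lowest and the highest value were both in CNT-T, and the groups overlapped throughout. Nr1h3 gave a log2 fold change of -0.12 (95% interval -0.60 to 0.35), and the Benjamini-Hochberg adjusted p of edgeR's quasi-likelihood test was 0.735. Without CNT-T rat 2 the log2 fold change was 0.09, still not called.

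Pparg encodes PPAR-gamma, the receptor that controls fat cell formation and lipid uptake genes. Its level was 1.31, 1.07, 1.05 and 0.688 CPM in CNT-7 rats 3, 5, 10 and 11, and 0, 0.0887, 0.0659 and 0.143 CPM in CNT-T rats 1, 2, 12 and 13. CNT-7 rat 11 was the lowest of its group. These levels rest on 40, 32, 29 and 19 counts in CNT-7 and on 0, 3, 2 and 4 counts in CNT-T. Summed over the rats, 120 counts stood against 9. Relative to the TMM-normalized total counts this was a ratio of 14.2, with an exact 95% counting interval from 7.21 to 31.7. The fitted log2 fold change of 3.74 (SE 0.53) is given as a description and depends on the prior count that the fit adds. Since Pparg entered the test through the CNT-7 rats only, its p is not given as support. Under a filter of at least 10 counts in every rat Pparg was not tested. Its CNT-T counts are near the limit of detection, so a low level there cannot be told from none in rat 1.

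The other receptors and heterodimer partners were 6 genes, of which 4 passed the filter, 2 were called higher and 0 lower in CNT-7, where 13.9% and 14.0% of all genes tested were. DESeq2 gave the same numbers, and edgeR's test at an unadjusted p under 0.05 did too. The median log2 fold change of the 4 was 0.07. Ppard, the gene of the broadly expressed PPAR-delta, was at 25.8, 37.3, 36.8 and 29.8 CPM in CNT-7 and at 20.8, 23.3, 22.7 and 21.1 CPM in CNT-T, in the same order of rats. Ppard was thus lowest in the 4 CNT-T rats without overlap, and the spread within CNT-T was narrow. Ppard rose by a log2 fold change of 0.56 (SE 0.12; edgeR's quasi-likelihood test, Benjamini-Hochberg adjusted p = 0.0102).

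Nr1h2, which encodes LXR-beta, was at 75.9, 92.3, 89.6 and 78.6 CPM in CNT-7 and at 80.5, 67.8, 68.8 and 60.4 CPM in CNT-T. CNT-T rat 1 lay above CNT-7 rats 3 and 11, so the groups overlapped. Its log2 fold change was 0.28 (SE 0.10; edgeR's quasi-likelihood test, Benjamini-Hochberg adjusted p = 0.0847). The call was lost without CNT-7 rat 5 or 10, without CNT-T rat 2, 12 or 13, and with no filter on low counts, and over all alternatives edgeR's or DESeq2's Benjamini-Hochberg adjusted p ran from 0.0307 to 0.206. The partner genes Rxra (145 ± 7.66 CPM in CNT-7 and 161 ± 21.4 CPM in CNT-T) and Rxrb (38.8 ± 0.939 and 42.5 ± 3.57 CPM) were not called. Their log2 fold changes had 95% intervals from -0.37 to 0.07 for Rxra and from -0.30 to 0.04 for Rxrb. Without CNT-T rat 13 Rxrb was called lower, with a log2 fold change of -0.19 (Benjamini-Hochberg adjusted p = 0.0808 by edgeR's quasi-likelihood test, where its other alternatives reached up to 0.453). Rxrg had no count in any rat, and Ppara, the receptor gene of hepatic fatty acid oxidation, was at most 0.165 CPM, so neither was tested.

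Abca1 and Abcg1 encode the transporters that load cholesterol onto apolipoprotein A-I and onto high-density lipoprotein. Abcg1 was at 236, 240.4, 203 and 255 CPM in CNT-7 rats 3, 5, 10 and 11, and at 97.3, 107, 135 and 126 CPM in CNT-T rats 1, 2, 12 and 13. The lowest CNT-7 rat, rat 10, was well above the highest CNT-T rat, rat 12. Abcg1 was 2.01-fold higher in CNT-7 (95% interval 1.68 to 2.41), a log2 fold change of 1.01 (SE 0.12) with a Benjamini-Hochberg adjusted p of 0.000632 by edgeR's quasi-likelihood test. It kept this call in all 14 fits made as alternatives, with log2 fold changes from 0.93 to 1.09.

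Abca1 was at 207, 232, 157 and 249.8 CPM in CNT-7 and at 134, 173, 197 and 195 CPM in CNT-T, in the same order of rats. CNT-7 rats 3, 5 and 11 were above every CNT-T rat, whereas CNT-7 rat 10 lay among the CNT-T rats. Its log2 fold change of 0.27 (95% interval -0.09 to 0.63) was not called (edgeR's quasi-likelihood test, Benjamini-Hochberg adjusted p = 0.270). When CNT-7 rat 10 was left out, Abca1 was called higher, with a log2 fold change of 0.40 and a Benjamini-Hochberg adjusted p of 0.0819 by edgeR's quasi-likelihood test, and the other alternatives reached up to 0.495. Whether Abca1 and Abcg1 differed in their response was not tested.

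Mylip encodes IDOL, a ubiquitin ligase through which LXRs limit lipoprotein uptake. It was at 110.2, 127, 101 and 86.2 CPM in CNT-7 rats 3, 5, 10 and 11 and at 58.2, 65.2, 71.0 and 78.2 CPM in CNT-T rats 1, 2, 12 and 13. The groups did not overlap, and the narrowest gap was between CNT-7 rat 11 and CNT-T rat 13. Mylip was 1.56-fold higher in CNT-7 (95% interval 1.27 to 1.90; log2 fold change 0.64, SE 0.13; edgeR's quasi-likelihood test, Benjamini-Hochberg adjusted p = 0.00740). The call held in all 14 alternative fits.

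Apoe encodes apolipoprotein E, which macrophages secrete with the cholesterol they release. Apoe was at 22.9, 27.5, 25.6 and 48.9 CPM in CNT-7 and at 26, 40.7, 25.9 and 31.4 CPM in CNT-T, in the same order of rats. CNT-7 rat 11 and CNT-T rat 2 were the highest of their groups, and the remaining rats lay close together. Apoe thus had a log2 fold change of 0.01 (95% interval -0.54 to 0.56), and the Benjamini-Hochberg adjusted p of edgeR's quasi-likelihood test was 0.983. Leaving out CNT-7 rat 11 gave -0.29, again without a call.

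Lpl encodes lipoprotein lipase, which frees fatty acids from circulating triglyceride and is a target of both LXRs and PPARs. Lpl was at 128, 56.7, 29.1 and 67.9 CPM in CNT-7 and at 78.2, 115, 118 and 83.3 CPM in CNT-T. CNT-7 rat 3 had the highest level of all rats, and the other 3 CNT-7 rats lay below every CNT-T rat. The log2 fold change of -0.49 (95% interval -1.31 to 0.33) was not called, with a Benjamini-Hochberg adjusted p of 0.396 by edgeR's quasi-likelihood test. Without CNT-7 rat 3 it was -0.95 and Lpl was called lower, with an adjusted p of 0.0512 by the same edgeR test with Benjamini-Hochberg adjustment, against up to 0.624 in the other alternatives.

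The remaining members serve fatty acids inside the cell. Plin2 encodes perilipin 2, the coat protein of macrophage lipid droplets. Its level was 174, 186, 279 and 172 CPM in CNT-7 rats 3, 5, 10 and 11 and 144, 166, 127 and 159 CPM in CNT-T rats 1, 2, 12 and 13. All CNT-7 rats lay above all CNT-T rats, with CNT-7 rat 10 far above the rest and the other 3 only just above CNT-T rat 2. Plin2 was 1.36-fold higher in CNT-7 (95% interval 1.06 to 1.75; log2 fold change 0.45, SE 0.16; edgeR's quasi-likelihood test, Benjamini-Hochberg adjusted p = 0.0803). This call was lost in 7 of 14 alternatives, namely without CNT-7 rat 5 or 10, without each of the 4 CNT-T rats, and with low and high rat numbers as blocks. Over all 14 the Benjamini-Hochberg adjusted p of edgeR or DESeq2 ran from 0.0306 to 0.197, and without CNT-7 rat 10 the log2 fold change was 0.26, with 0.12 as its adjusted p.

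Fabp4 encodes the fatty acid binding protein of fat cells and macrophages, a target of PPAR-gamma. Fabp4 was at 10.2, 8.84, 17.0 and 8.43 CPM in CNT-7 and at 5.15, 9.54, 5.93 and 30.1 CPM in CNT-T. The highest level by far was in CNT-T rat 13, and CNT-T rats 1 and 12 were below every CNT-7 rat, and CNT-T rat 2 lay among them. The log2 fold change was -0.18 (95% interval -1.36 to 1.0) and was not called (edgeR's quasi-likelihood test, Benjamini-Hochberg adjusted p = 0.843). Without CNT-T rat 13 it was 0.69, also not called.

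**Figure D1:**
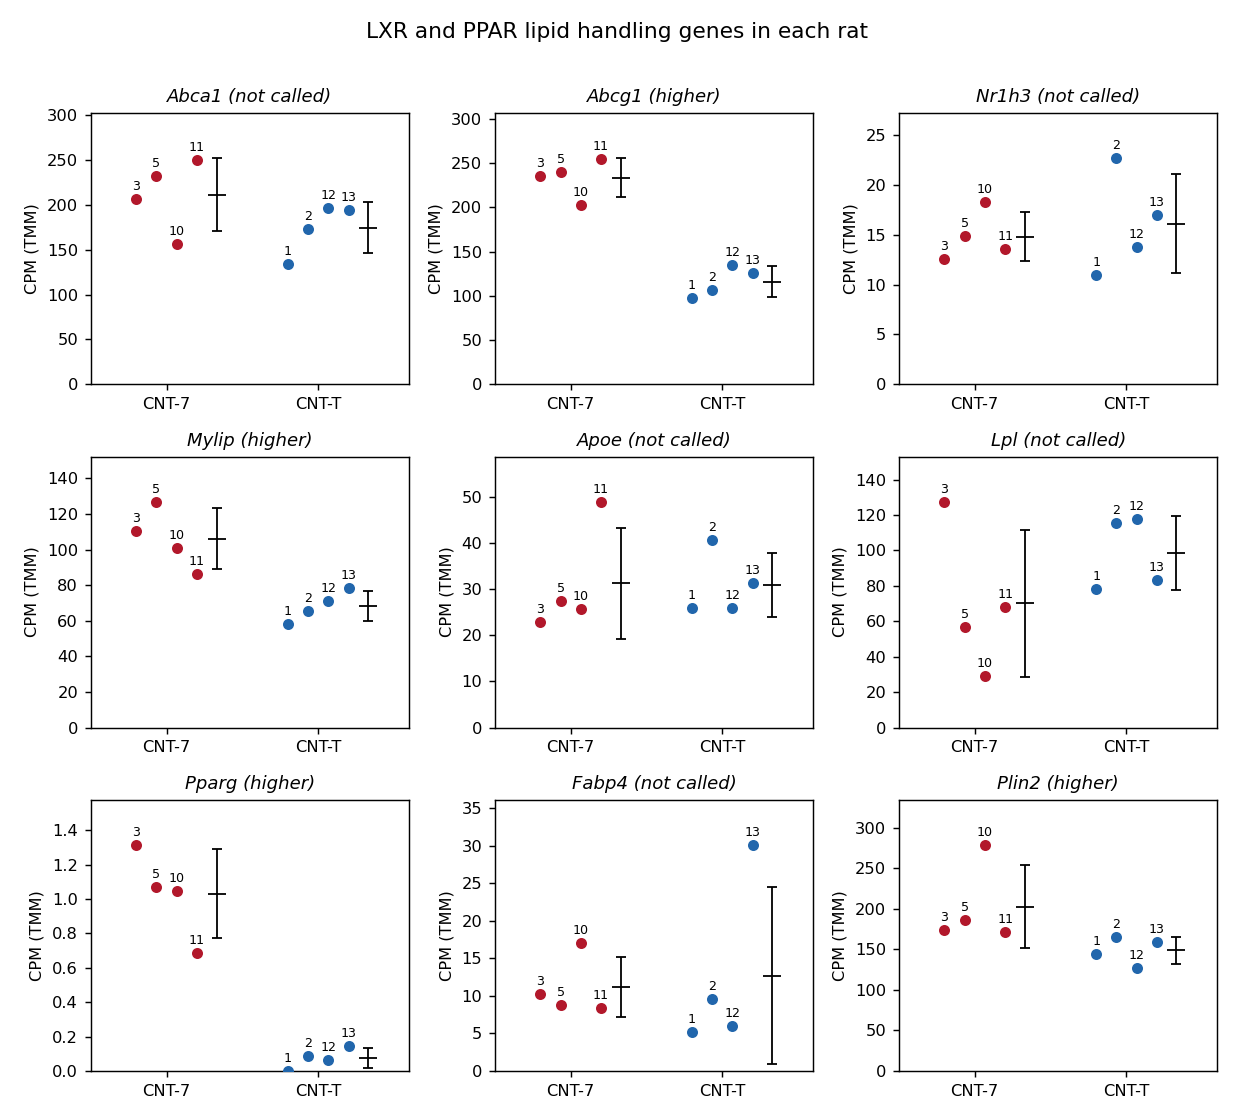
Levels of the 9 LXR and PPAR lipid handling genes in CPM (vertical axes, each from 0) in the 4 CNT-7 rats (red) and 4 CNT-T rats (blue), with the rat number above each point and the mean ± SD of the group at its right. The groups are apart in Abcg1, Mylip, Pparg and Plin2, CNT-7 rat 10 stands high in Plin2 with 279 CPM, and CNT-T rat 13 stands high in Fabp4 with 30.1 CPM.

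The rats did not hold 1 order across the genes. CNT-T rat 1 had the lowest level of its group in 7 of the 9 genes, Apoe and Plin2 being the exceptions. CNT-7 rat 10 was the highest of its group in Nr1h3, Fabp4 and Plin2 and the lowest in Abca1, Abcg1 and Lpl. Rat numbers fell into a range up to 5 and a range from 10, each with 2 rats of each group, and what the ranges stand for is not given in the sources used here. On log2 CPM with a prior count of 2, the CNT-7 minus CNT-T difference within the low and the high range was 1.23 and 0.81 for Abcg1, 0.94 and 0.32 for Mylip, 3.62 and 2.46 for Pparg, and 0.22 and 0.63 for Plin2. Since the groups did not overlap in these 4 genes, both ranges had to share the direction. For Abca1 the differences were 0.52 and 0.02, and for Lpl -0.16 and -1.16. The sign differed between the ranges for Nr1h3 (-0.20 and 0.04), Apoe (-0.37 and 0.31) and Fabp4 (0.44 and -0.16).

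The list of other LXR targets held 15 genes, of which 13 had a row and 8 passed the filter. Like all lists here, it was chosen with earlier results of these data known, so its shares are a description. In CNT-7 5 were called higher, or 62.5%, against 13.9% of all genes tested, and 1 was called lower, where 14.0% of all genes were. The median log2 fold change was 0.57, against 0.01 over all genes tested. Abcg5, Abcg8, Apoc1, Apoc2 and Apoc4 had no count in any rat. Tgm2, the gene of transglutaminase 2, an enzyme that crosslinks proteins and takes part in the uptake of dead cells, was at 3214, 5431, 9511 and 3043 CPM in CNT-7 and at 149, 530.1, 273 and 301 CPM in CNT-T. The groups were far apart, and CNT-7 rat 10 was again the highest. Tgm2 rose by a log2 fold change of 4.08 (SE 0.49; edgeR's quasi-likelihood test, Benjamini-Hochberg adjusted p = 0.000723).

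The fatty acid desaturase gene Scd2 was at 394, 365, 215 and 314 CPM in CNT-7 and at 82.3, 190.2, 143 and 202 CPM in CNT-T. Its groups did not overlap, with CNT-7 rat 10 only just above CNT-T rat 13, and the log2 fold change was 1.06 (SE 0.28). Scd was at 4.46 ± 0.922 CPM in CNT-7 and 2.30 ± 1.10 CPM in CNT-T, with a log2 fold change of 0.96 (SE 0.36). The Scd genes are similar to each other, so how reads were shared out among them is uncertain. The call of Scd was lost without CNT-7 rats 3, 5, 10 or 11 and without CNT-T rats 2 or 12, with log2 fold changes between 0.82 and 1.04 in these fits.

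Pltp, which encodes phospholipid transfer protein, and Srebf1, which encodes the transcription factor of fatty acid synthesis, are named here after their values were seen. Pltp was at 1099, 1059.8, 844 and 834 CPM in CNT-7 and at 529.6, 574, 616 and 419 CPM in CNT-T. These groups were well separated, with a log2 fold change of 0.84 (SE 0.14; edgeR's quasi-likelihood test, Benjamini-Hochberg adjusted p = 0.00316). Srebf1 ran from 30.6 to 37.0 CPM in CNT-7 and from 26.8 to 28.9 CPM in CNT-T, with a log2 fold change of 0.30 (SE 0.08). The target that was called lower was Smpdl3a, a secreted phosphodiesterase gene, at 1062 ± 82.2 CPM in CNT-7 and 1415 ± 157 CPM in CNT-T. Smpdl3a fell by 0.41 on the log2 scale (SE 0.10), and CNT-T rat 2 was the lowest of its group at 1182 CPM, just above the highest CNT-7 rat.

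Of 20 other PPAR targets 15 passed the filter, and 2 were called higher and 1 lower in CNT-7, with a median log2 fold change of 0.16. The share called higher was 13.3%, against 13.9% of all genes tested, the share called lower in all genes was 14.0%, and DESeq2 called 3 higher and 1 lower. Slc25a20, the gene of the mitochondrial carnitine and acylcarnitine carrier, was at 48.2 ± 2.98 CPM in CNT-7 and 38.5 ± 1.82 CPM in CNT-T, without overlap between the groups, with a log2 fold change of 0.33 (SE 0.07; edgeR's quasi-likelihood test, Benjamini-Hochberg adjusted p = 0.0102).

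Fabp5, the epidermal relative of Fabp4 that macrophages also express, was at 124, 80.4, 109.5 and 120.5 CPM in CNT-7 and at 121, 164, 133 and 181 CPM in CNT-T. CNT-T rat 1 lay among the CNT-7 rats. Fabp5 fell by 0.47 on the log2 scale (SE 0.16), a call that was lost without CNT-7 rat 5 or 10 or CNT-T rat 2 or 13, where the log2 fold change was between -0.47 and -0.35. Cidec, a lipid droplet gene named here after its values were seen, was not tested, with 0.525, 0.636, 0 and 0.470 CPM in CNT-7 and 0.0978, 0, 0.132 and 0 CPM in CNT-T.

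The coregulators of these receptors were 12 genes, 10 of which passed the filter, with 1 called higher, 1 lower (13.9% and 14.0% over all genes tested) and a median log2 fold change of 0.00. Nrip1, whose product RIP140 represses nuclear receptor targets, was at 76.7, 95.3, 88.1 and 108 CPM in CNT-7 and at 124, 113, 132 and 145 CPM in CNT-T. The groups did not overlap, and Nrip1 fell by 0.48 on the log2 scale (SE 0.11; edgeR's quasi-likelihood test, Benjamini-Hochberg adjusted p = 0.0162). Ppargc1b, a coactivator gene of mitochondrial and lipid metabolism, was at 4.98 ± 1.22 CPM in CNT-7 and 3.26 ± 0.383 CPM in CNT-T. CNT-7 rat 5 lay within CNT-T, and the log2 fold change of 0.61 (SE 0.20) was no longer called without CNT-7 rat 3 or 11 or CNT-T rat 2 or 12, where it was between 0.49 and 0.58.

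Oxysterol enzymes make or remove LXR ligands. Of 6 such genes 3 passed the filter, and 0 were called in either direction. At an unadjusted p under 0.05 edgeR's test gave 0 of them, and DESeq2 gave 1 higher, which its adjusted p did not call. Cyp27a1, which encodes the enzyme that makes 27-hydroxycholesterol, was at 12.6, 12.4, 4.62 and 17.3 CPM in CNT-7 and at 16.3, 13.3, 14.8 and 13.8 CPM in CNT-T. CNT-7 rat 10 was the lowest and CNT-7 rat 11 the highest of all rats. Ch25h, the gene of cholesterol 25-hydroxylase, was at 0.919, 1.31, 4.19 and 2.97 CPM in CNT-7 and at 0.652, 1.45, 1.29 and 2.68 CPM in CNT-T, with groups that overlapped. The log2 fold changes were -0.31 for Cyp27a1 and 0.63 for Ch25h, with wide 95% intervals from -1.0 to 0.38 and from -0.56 to 1.82. Over the fits without a rat they ran from -0.555 to -0.0441 for Cyp27a1 and from 0.19 to 1.04 for Ch25h, without a call. Both were smallest without CNT-7 rat 10. Cyp46a1, Cyp7b1 and Sult2b1 did not pass the filter and were at most 0.251, 0.0361 and 0.325 CPM.

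Lipoprotein uptake was represented by 9 genes, of which 8 passed the filter, 3 were called higher, 1 of them (Vldlr) having passed mainly through CNT-7, and 1 lower, against 13.9% and 14.0% of all genes tested. The median log2 fold change of the 8 was 0.22. Olr1, which encodes the oxidized LDL receptor LOX-1, was at 585, 821, 1203 and 509 CPM in CNT-7 and at 91.1, 144, 145 and 150.2 CPM in CNT-T. The groups lay far apart, with CNT-7 rat 10 the highest and CNT-T rat 1 the lowest of its group. The log2 fold change of Olr1 was 2.56 (SE 0.28; edgeR's quasi-likelihood test, Benjamini-Hochberg adjusted p = 0.000472). Scarb1, the gene of the high-density lipoprotein receptor SR-BI, was at 33.7 ± 3.68 CPM in CNT-7 and 24.5 ± 3.89 CPM in CNT-T, with a log2 fold change of 0.46 (SE 0.13). Its groups overlapped, with CNT-7 rat 10 at 29.0 CPM just below CNT-T rat 2 at 29.1 CPM.

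Vldlr, the gene of the very-low-density lipoprotein receptor, was at 2.40, 1.47, 3.97 and 0.941 CPM in CNT-7 and at 0.326, 0.207, 0.297 and 1.36 CPM in CNT-T. CNT-T rat 13 lay above CNT-7 rat 11 and was the only CNT-T rat past the level that the filter asks for, so Vldlr passed the filter mainly through CNT-7. Its log2 fold change of 2.02 (SE 0.64) was called, but not without CNT-7 rat 10 (1.57) or CNT-T rats 1 (1.84), 2 (1.74) or 12 (1.82), and without CNT-T rat 13 it was 2.97. Lrpap1, which encodes a chaperone of this receptor family, fell by 0.27 on the log2 scale (SE 0.09), and its call was lost without CNT-7 rat 3 or 10 or CNT-T rat 1 or 2, where the log2 fold change was between -0.25 and -0.21.

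Genes of sterol and triglyceride stores numbered 14, and 13 passed the filter, with 6 called higher, 1 lower (over all genes tested 13.9% and 14.0%) and a median log2 fold change of 0.20. Dgat2, the gene of an enzyme that completes triglycerides, was at 3.12, 5.39, 8.59 and 4.38 CPM in CNT-7 and at 1.47, 2.75, 1.15 and 2.25 CPM in CNT-T. The groups did not overlap, CNT-7 rat 10 was the highest, and the log2 fold change was 1.49 (SE 0.36; edgeR's quasi-likelihood test, Benjamini-Hochberg adjusted p = 0.0168). Pnpla2, which encodes the adipose triglyceride lipase that starts the breakdown of stored fat, was at 52.2, 45.9, 57.7 and 52.2 CPM in CNT-7 and at 39.1, 32.8, 34.5 and 26.7 CPM in CNT-T. Its groups did not overlap either, with a log2 fold change of 0.64 (SE 0.12; edgeR's quasi-likelihood test, Benjamini-Hochberg adjusted p = 0.00493).

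Both the activator and the inhibitor of this lipase were called higher. G0s2, the inhibitor, was at 4.01, 2.18, 2.24 and 1.01 CPM in CNT-7 and at 1.08, 1.18, 0.989 and 1.43 CPM in CNT-T. CNT-7 rat 11 lay within CNT-T, and the log2 fold change of 1.01 (SE 0.37) was 0.63 without CNT-7 rat 3 and was called in only 6 of 14 alternatives. Only CNT-7 rat 11 could be left out without ending the G0s2 call. Abhd5, the activator, was at 76.2 ± 9.71 CPM in CNT-7 and 55.2 ± 3.94 CPM in CNT-T without overlap, with a log2 fold change of 0.47 (SE 0.10), and was named after its values were seen.

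Lipa, the gene of lysosomal acid lipase, and Plin3, a perilipin gene, were likewise named after their values were seen. Lipa was at 624 ± 43.0 CPM in CNT-7 and 492 ± 57.1 CPM in CNT-T, with a log2 fold change of 0.34 (SE 0.10) and no overlap. For Plin3 the log2 fold change was 0.25 (SE 0.08), a call that was lost without CNT-7 rat 5 or 10 or CNT-T rat 2, 12 or 13, where it was between 0.22 and 0.24. Mgll, which encodes monoglyceride lipase, was the gene of this list that fell, with 1.31, 0.871, 0.469 and 0.977 CPM in CNT-7 and 2.84, 1.92, 2.64 and 2.33 CPM in CNT-T. Each CNT-7 rat was below each CNT-T rat, and Mgll fell by 1.41 on the log2 scale (SE 0.30; edgeR's quasi-likelihood test, Benjamini-Hochberg adjusted p = 0.00955).

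**Figure D2:**
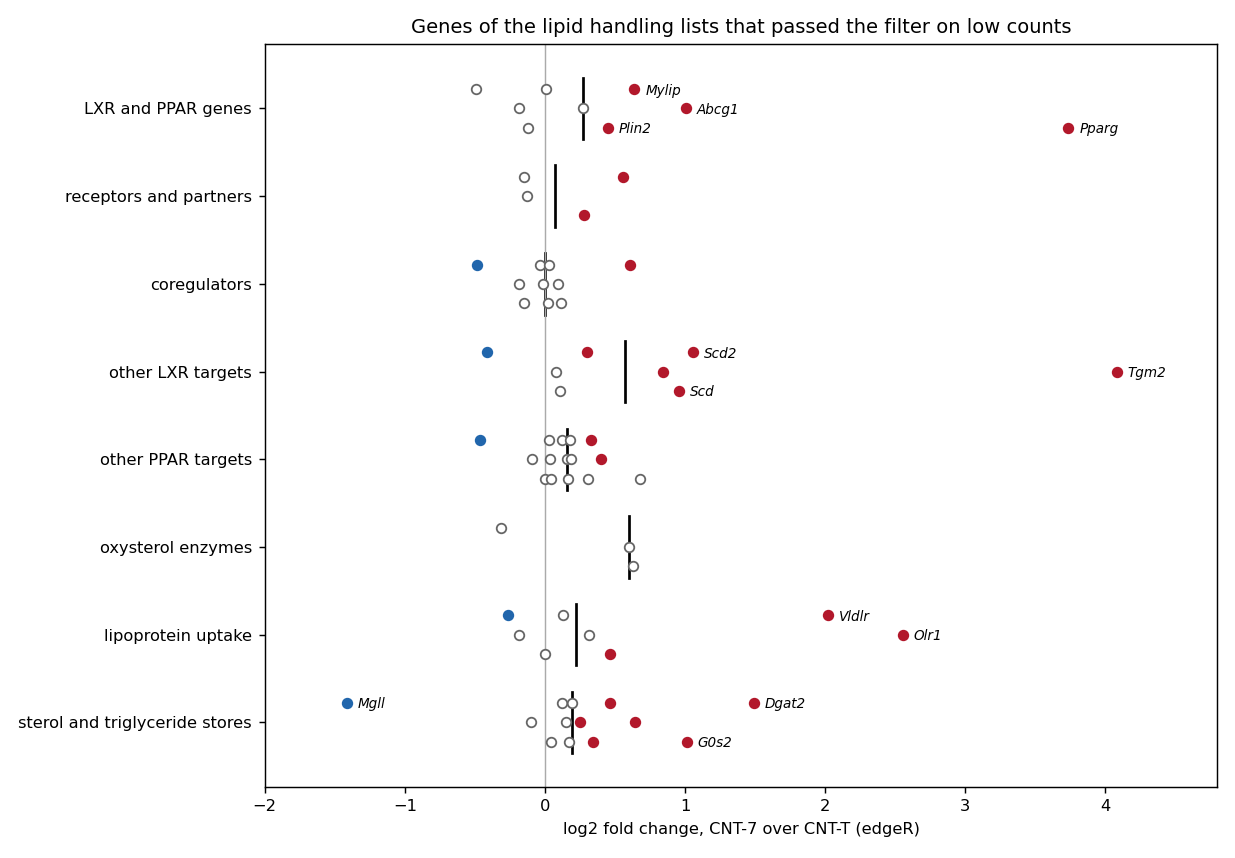
Log2 fold change, CNT-7 relative to CNT-T (horizontal axis, edgeR), for each gene of the LXR and PPAR genes and pathway lists that passed the filter on low counts, in rows by list and without the marker lists, with genes called higher in red, called lower in blue and not called in white, and a black bar at the median of the list. Among the genes drawn, Pparg at 3.74 and Tgm2 at 4.08 lie farthest to the right and Mgll at -1.41 farthest to the left.

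RefSeq promoter sequences on the build GRCr8, from 250 bases before to 50 bases after each gene's start, were searched because LXRs and PPARs bind direct repeats of AGGTCA, spaced by 4 bases (DR4) and by 1 base (DR1). Each copy could differ from AGGTCA in at most 1 base, and both strands were read. Of the 10 genes, Cd36 included, 7 had a promoter sequence, 11 sequences in all, and Abcg1, Lpl and Fabp4 had no entry. The repeats DR4 and DR1 were in 0 of these 11 sequences, whereas 1.74% and 2.26% of all 33469 promoter sequences held them. This says only that these letters are not in these windows. Among the 65 promoter sequences of the other pathway lists 0 held DR4 and 2 held DR1, both from other PPAR targets, and they are shown, having been chosen after the search, as the sequences behind that count. The Slc25a20 match lay at chr8:118243580-118243608 on the plus strand, just after the annotated start, and the Acadvl match at chr10:55236702-55236730 on the minus strand, just before the start. Both read 5′ to 3′ in the direction of the gene, with capitals for the copies of the repeat.
Slc25a20: cttaatgtAGGTGAaAGGTCGgtgtagcc
Acadvl: gggagaagAGGTCAgTGGTCAaggcttca
Acadvl, the gene of a mitochondrial acyl-CoA dehydrogenase, was at 60.9 ± 3.17 CPM in CNT-7 and 54.6 ± 4.34 CPM in CNT-T and was not called, with a log2 fold change of 0.16 (95% interval -0.01 to 0.33). A match of letters is a description and not a binding site.

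Fat cells express Pparg, Fabp4 and Lpl strongly, so markers of adipocytes were read in the same libraries. Of 8 adipocyte markers 6 were below 1 CPM in every rat, among them Plin1, Lep, Lipe and Pck1, which were at most 0.145, 0.179, 0.217 and 0.0989 CPM. The summed level was 167, 237, 211 and 212 CPM in CNT-7 and 327, 297, 324 and 269.5 CPM in CNT-T, lower in 4 of 4 CNT-7 rats, by an exact two-sided permutation test over 70 assignments of the rats with p = 0.0286, the smallest p possible here, and 0.0953 after Benjamini-Hochberg adjustment over 10 marker lists. Cfd, which macrophages also express, made up between 79.7% and 93.0% of the sum, and without it the exact permutation p was 0.486. Adipoq, the gene of adiponectin, made up most of the rest, with 32.9, 19.3, 38.8 and 26.7 CPM in CNT-7 and 25.6, 28.7, 21.6 and 28.7 CPM in CNT-T, without a call. Of these 8 markers, 4 are also in the pathway lists. The paper defines peritoneal macrophages as CD11b/c-high and His48-dim cells and isolated them by flow cytometry sorting. The part of fat cells in the Adipoq and Fabp4 levels was not tested.

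Endothelial cells express Fabp4 as well. Of 8 endothelial markers Emcn and Cldn5 had no count, and Kdr and Egfl7 were at most 0.362 and 0.1 CPM. Tie1 made up between 59.4% and 75.3% of the summed level, which was 213, 217, 221 and 220.1 CPM in CNT-7 and 246, 247, 238 and 206 CPM in CNT-T (exact permutation p = 0.143). Without Tie1 the endothelial sum was lower in every CNT-7 rat (54.3 to 71.4 against 75.9 to 100 CPM; exact permutation p = 0.0286, not adjusted over the lists). Of the 4 endothelial markers tested, 2 had positive and 2 had negative log2 fold changes. Only Tek was called, and it is named after its values were seen. Tek was at 19.1 ± 6.34 CPM in CNT-7 and 38.7 ± 6.09 CPM in CNT-T, a log2 fold change of -1.02.

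Sums of the other marker lists were small, except those of neutrophil and mast cell markers. Mesothelial markers summed to at most 0.536 CPM in any rat, with Upk3b and Wt1 at 0 (exact permutation p = 0.543). B cell markers reached 2.78 CPM, in CNT-7 rat 5 (exact permutation p = 0.771), and T cell markers 10.0 CPM in the same rat (exact permutation p = 0.971). Without Lck, the most abundant of them, the T cell sum was higher in every CNT-7 rat, at 0.821 to 5.42 against 0.143 to 0.619 CPM (exact permutation p = 0.0286). Eosinophil markers reached 9.33 CPM in CNT-7 rat 3, most of it Ccr3, with Epx and Prg3 at 0 (exact permutation p = 0.286). Dendritic cell markers ran from 4.26 to 8.47 CPM over all rats, most of it Zbtb46 (exact permutation p = 0.8). Without Zbtb46 the dendritic cell sum was 0.796 to 2.61 CPM in CNT-7 and 0.295 to 0.593 CPM in CNT-T (exact permutation p = 0.0286). In the same list Clec9a, named after its values were seen, ran from 0.615 to 1.98 CPM in CNT-7 and from 0.148 to 0.560 CPM in CNT-T. Clec9a was called higher, with a log2 fold change of 1.76 (edgeR's quasi-likelihood test, Benjamini-Hochberg adjusted p = 0.0262). Only 2 of the 5 dendritic cell markers were tested, and the other, Zbtb46, had a log2 fold change of -0.22 and was not called.

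Neutrophil markers summed to between 31.8 and 61.5 CPM in CNT-7 and between 25.0 and 68.0 CPM in CNT-T, chiefly Csf3r, with Mpo at 0 (exact permutation p = 0.571). S100a8 of this list, named after its values were seen, ran from 1.34 to 3.25 CPM in CNT-7 and from 4.19 to 9.03 CPM in CNT-T and was called lower, with a log2 fold change of -1.46 (edgeR's quasi-likelihood test, Benjamini-Hochberg adjusted p = 0.0159). Of the 4 neutrophil markers tested, 2 had positive and 2 had negative log2 fold changes, and only S100a8 was called. The log2 fold changes of S100a9, Csf3r and Elane were 1.23, 0.39 and -0.68. That of S100a9 rested on CNT-7 rat 5, at 3.68 CPM, with 0.427, 0.217 and 0.145 CPM in CNT-7 rats 3, 10 and 11. In CNT-T S100a9 ran from 0.358 to 0.652 CPM. Mast cell markers summed to 21.9, 35.2, 91.9 and 35.1 CPM in CNT-7 and to at most 2.18 CPM in CNT-T (exact permutation p = 0.0286, Benjamini-Hochberg 0.0953 over the lists). Nearly all of the CNT-7 sum was Hdc, the gene of the histamine-forming enzyme, and the remaining 5 markers summed to between 0.0295 and 2.04 CPM over all rats. CNT-7 rat 10, highest in Plin2, Tgm2, Olr1 and Dgat2, also had the highest Hdc, at 91.1 CPM. Macrophage markers themselves summed to between 16055 and 23118 CPM in CNT-7 and between 24757 and 35039 CPM in CNT-T (exact permutation p = 0.0286, Benjamini-Hochberg 0.0953), with Lyz2 at 75.9% to 85.9% of the sum. Of the 10 macrophage markers 2 were called higher and 5 lower in CNT-7, against 13.9% and 14.0% of all genes tested, and DESeq2 and RLE scaling each called 6 lower. What part a different mixture of macrophages has in the lipid gene differences was not tested.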

How the data were processed

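Macrophage libraries of 4 CNT-7 and 4 CNT-T rats were grouped by the sample labels, and 0 columns of the table were left unused. The authors sequenced stranded mRNA libraries, quantified reads with Salmon against rat cDNA (Rnor_6.0) and deposited estimated counts per gene, already whole numbers, so that rounding changed 0 values. The Salmon version is not given in the sources used here. Reads of similar transcripts are shared out by estimation.

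In R 4.3.3, edgeR 4.0.16 compared the groups by its quasi-likelihood test with TMM normalization, the filterByExpr defaults (minimum count 10, minimum total 15) and Benjamini-Hochberg adjustment over all genes. Each standard error is the size of the log2 fold change over the root of F, and 95% intervals use the t distribution with the moderated degrees of freedom. Marker lists were summed in CPM and compared by an exact permutation test. Alternatives were DESeq2 1.42.0, RLE and upper-quartile scaling, no filter, 10 counts or more required in every rat, low and high rat numbers as blocks, a threshold of 0.05, a 2-fold change, and fits without each single rat. The scripts were tested on simulated data. No columns of the 8 rats were identical. Promoters were read with Python 3.11.15 and pandas 2.3.3, and figures drawn with matplotlib 3.10.9.

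The 10 genes and the gene lists were chosen with earlier results of these data known. Named were all 10 genes, all genes of the receptor and oxysterol enzyme lists, and, from each other pathway list, the called genes with the 3 largest rises and 3 largest falls among those with a mean of at least 1 CPM in the higher group. A few genes of these lists count in the list totals but are not reported here by name. Promoters were to be shown for those of the 10 genes that held a repeat. The marker lists covered adipocytes, endothelial, mesothelial, mast, B, T and dendritic cells, neutrophils, eosinophils and macrophages.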

Additional observations from a re-analysis of the deposited data

Results flagged for a closer look

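In groups of 4 rats, a rat was picked out when its gap to the nearest other rat, divided by the range of the group, exceeded Dixon's 95% critical value. Among 85 groups examined, over the LXR and PPAR genes and the named pathway and marker genes, 4 exceeded it, where chance gives about 1 in 20, or 4.25. Plin2 in CNT-7 rat 10 had a ratio of 0.871, with 279 CPM against 186 CPM in the next rat. Smpdl3a in CNT-T rat 2 had a ratio of 0.874, with 1182 CPM against 1476 CPM in the next rat. For Olr1 in CNT-T rat 1 the ratio was 0.895, with 91.1 CPM against 144 CPM. For Vldlr in CNT-T rat 13 it was 0.897, with 1.36 CPM against 0.326 CPM.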

How the results depend on the processing

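Between 3 and 4 of the 9 LXR and PPAR genes were called higher in the 8 fits without a single rat, and between 0 and 1 were called lower, the 1 being Lpl without CNT-7 rat 3. The number of all genes called was then between 2578 and 3515, against 3383 with every rat. A minimum 2-fold change left 2 of the 9 genes, Abcg1 and Pparg, and 1006 of all genes. Pparg passed the default filter through the CNT-7 rats only. Its calls in this section, and its pairs counted below as kept, are therefore a description and not support. DESeq2, RLE scaling, upper-quartile scaling and no filter each called the same 4 genes higher and 0 lower. With low and high rat numbers as blocks Plin2 was not called, with a log2 fold change of 0.44 against 0.45 and an adjusted p of 0.101 by edgeR's quasi-likelihood test with the Benjamini-Hochberg method, and under a filter of 10 counts in every rat Pparg was not tested. An adjusted p under 0.05 left 3 of the 9 genes called higher, and 2507 of all genes called in either direction. Over 40 named genes and 557 pairs of a gene and an alternative, 500 kept their direction and their side of the threshold, 48 lost a call, 3 gained a call and 6 changed sign. The changes of sign were among genes without a call: Apoe with the number ranges as blocks (-0.012) and without CNT-7 rat 11 or CNT-T rat 1 or 12, Nr1h3 without CNT-T rat 2, and Fabp4 without CNT-T rat 13. Over the fits without a rat the log2 fold change ran from -0.292 to 0.168 for Apoe, from -0.268 to 0.087 for Nr1h3 and from -0.461 to 0.692 for Fabp4. Leaving out the most abundant marker turned the CNT-7 minus CNT-T difference of the adipocyte sum to 3.48 CPM (exact permutation p = 0.486) and that of the neutrophil sum to -3.63 CPM (exact permutation p = 0.0857). It also ended the difference of the mast cell sum (exact permutation p = 0.714), while the endothelial, T cell and dendritic cell sums, with differences of -26.9, 1.76 and 1.19 CPM, then reached the smallest possible exact permutation p of 0.0286. The cause of these changes was not tested, except that fits without a rat have fewer samples. Depth limits the CNT-T level of Pparg, which rests on 9 counts in all.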
